A study of Populus ussuriensis with 18 samples.

Results

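The second day of polyethylene glycol (PEG) treatment in roots of Populus ussuriensis, a poplar tree, was described by setting the roots held in PEG for 48 h against the roots held in PEG for 24 h. Of the 18 RNA-seq libraries of the time course, 6 belong to this step, 3 of PEG 48 h and 3 of PEG 24 h, and they were chosen by their time label alone. Both groups came from wild type tissue-culture seedlings, 3 weeks old at transfer, whose stem cuttings had rooted on half-strength Murashige and Skoog medium with 16 h of light a day. Both had then been moved to liquid medium with 6% PEG 6000, and the remaining libraries were from roots at 0, 6, 12 and 120 h. Each of the 3 biological replicates per time was a pool of at least 6 seedlings, so a library is an average over plants and the p-values measure the spread between pools. No roots kept in liquid medium without PEG were among the samples, so time in PEG cannot be told apart from time after the transfer.

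PEG 6000 is a large polymer that stays outside the cells and lowers the water potential of the medium, which makes water harder for roots to take up, and it is commonly used to imitate drought. Roots meet low water potential with abscisic acid (ABA) signaling, protective proteins, removal of reactive oxygen species, and changes in growth, cell walls and ion and nutrient transport. In whole roots, fewer cells of a type and less RNA per cell cannot be told apart.

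Levels were FPKM (fragments scaled to transcript length and to the mapped fragments of the library) of 12994 full-length consensus transcripts, of which 12080 had at least 1 FPKM in 3 or more of the 18 libraries and were tested. FPKM summed to 1067374 to 1159874 per library over the 6 libraries. Read counts were not used here; the smallest steps between low values correspond to about 11.4 to 14.8 fragments for 1 FPKM in a transcript of 1 kb at 24 h and 12.5 to 12.7 fragments at 48 h, so values under 1 FPKM rest on a handful of fragments. One library stood apart: PEG 48 h replicate 3 had a mean Pearson r with its fellow replicates of 0.9605 over the log2 values, the lowest of the 18 libraries (the others had 0.9649 to 0.9788). Results are therefore given with and without it for many of the transcripts and lists that it moves, but not for all. ACC oxidase 1, for example, changed by -3.28 on the log2 scale with it and by -3.88 without it. Photosystem and chlorophyll-binding proteins, which mark green tissue, had 21 transcripts that summed to 3830, 3840 and 4282 FPKM at 48 h, against 2660, 3137 and 2968 FPKM at 24 h, and 11 of the 21 were higher at 48 h with a limma adjusted p under 0.05 (as were 9.06% of all transcripts tested), although none reached 2-fold. Transcripts known from roots were present in all 6 libraries, such as a nitrate transporter 2.1 with at least 38.4 FPKM and Peroxidase 4 with at least 38.2 FPKM. Both changed over this step, in opposite directions, and Peroxidase 4 averaged 8.24 FPKM at 0 h, so their levels do not measure root content. The other nitrate transporter 2.1 transcript had 9.15 to 9.87 FPKM at 24 h. The part of green or root tissue content in the differences below was not tested.

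A differentially expressed transcript (called a DEG) had a limma adjusted p under 0.05 and a difference of at least 1 between the time means of log2(FPKM + 1), the log2 fold change of 48 h minus 24 h, which understates the change of low transcripts. By this rule 51 DEGs rose at 48 h (0.422% of the transcripts tested) and 168 fell (1.39%). Among the DEGs the median log2 fold change was 1.17 for those that rose and -1.37 for those that fell, against -0.01 over all transcripts tested. Only 3 of the 51 rose by 2 or more on the log2 scale, whereas 22 of the 168 fell by as much. The 219 DEGs were 1.81% of the transcripts tested. In 209 of them the 3 libraries of 48 h did not overlap the 3 of 24 h. The calls were made on these same libraries, so this count is no separate support. The rule that named the largest rises and falls also required no overlap. Remarks on overlap of single transcripts below are therefore description only. The share without overlap over all transcripts tested was not computed. With an adjusted p under 0.05 and no minimum on the fold (below, at any fold), 1095 transcripts were higher (9.06%) and 1353 lower (11.2%) at 48 h. An unadjusted p under 0.05 was found for 3985 transcripts (33%). Another 200 transcripts passed the fold but not the adjusted p. The DEG nearest the fold minimum had 1.002 and the nearest one below it 0.998 on the log2 scale. Without 48 h replicate 3 the counts were 80 higher and 203 lower, of which 38 and 134 were among the DEGs of all 6 libraries.

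**Figure D1:**
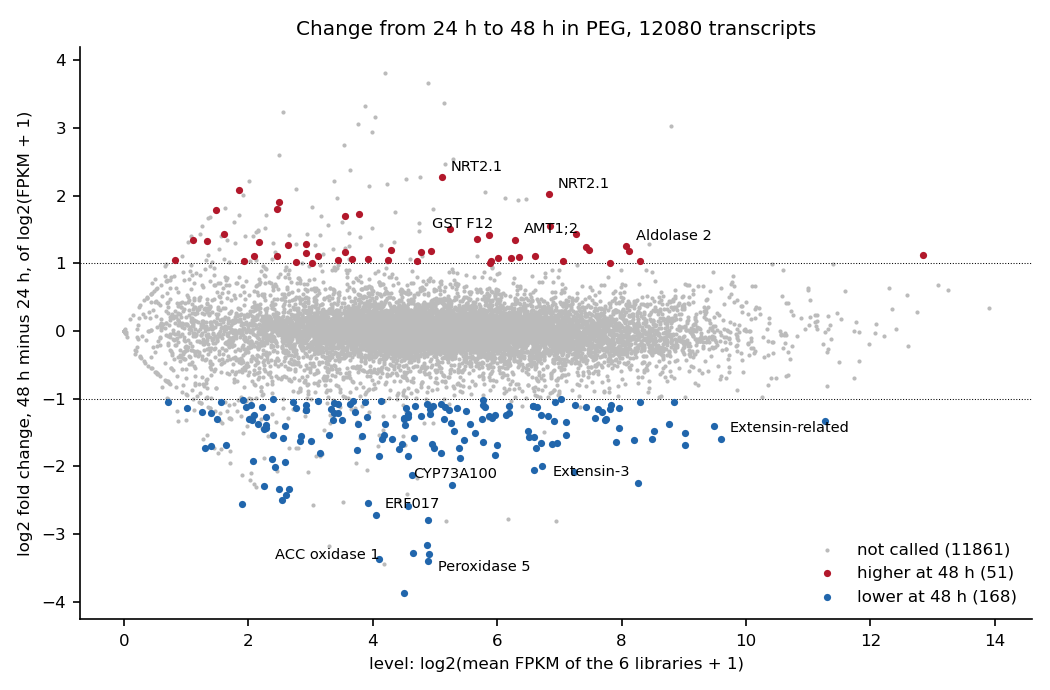
Change over the second day in PEG for the 12080 transcripts tested. The x axis is the level, log2(mean FPKM of the 6 libraries + 1), and the y axis the log2 fold change of 48 h minus 24 h; the dotted lines mark the fold minimum of 1, red points are the 51 DEGs that rose and blue points the 168 that fell. The falls reach -3.87 and the rises 2.27, and the gray points beyond the dotted lines passed the fold but not the adjusted p.

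A Swiss-Prot protein name was at hand for 676 of the transcripts tested, and 44 of the DEGs carried one, 11 that rose and 33 that fell. The 34 gene lists described below held 433 transcripts, 428 of them tested, of which 6 rose and 28 fell. Most of the lists hold transcripts called earlier against 0 h on these same libraries, so their counts are not independent evidence of a direction.

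Nitrogen uptake held the largest rise. Of the 12 tested transcripts of nitrate and ammonium transporters, amino acid permeases and asparagine synthetases, 3 rose, 1 fell and 8 were higher at any fold, with a median log2 fold change of 0.66. High-affinity nitrate transporter 2.1 (NRT2.1), the main carrier for nitrate uptake by roots when nitrate is scarce, was represented by a pair of transcripts. The shorter NRT2.1 transcript (f2p60_1894_22575) had 247, 245 and 70.2 FPKM at 48 h, against 39.0, 38.4 and 39.9 FPKM at 24 h. Its log2 fold change was 2.03 ± 0.35 (SE; limma adjusted p = 0.0011). The longer one (f2p37_1996_4289) had 73.9, 78.9 and 20.2 FPKM at 48 h and 9.15, 9.87 and 9.30 FPKM at 24 h, a change of 2.27 ± 0.36 (adjusted p = 5.0e-04), the largest rise of any DEG. All 3 libraries of 48 h were above all 3 of 24 h, but replicate 3 rose least; without it the changes were 2.62 and 2.89. The estimates may share reads between these near-identical copies, so their separate levels are uncertain, and in a fit of the 6 libraries alone the adjusted p values were 0.061 and 0.051.

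Ammonium transporter 1 member 2 (AMT1;2), a high-affinity ammonium carrier of roots, moved the same way. Its transcript (f2p31_1645_6180) had 192, 176 and 369 FPKM at 48 h and 104, 91.7 and 98.1 FPKM at 24 h, and it rose by 1.23 ± 0.19 (adjusted p = 4.4e-04). Here replicate 3 was the highest library, and without it the change was 0.90, under the fold minimum. In a fit of the 6 libraries alone the adjusted p of this transcript was 0.053. A second AMT1;2 transcript (f6p60_1644_24184) had 215, 208 and 190 FPKM at 48 h and 107, 102 and 101 FPKM at 24 h; its change of 0.98 (adjusted p = 4.2e-06) fell just short of the minimum, and was 1.03 without replicate 3. Asparagine synthetase, which stores nitrogen in asparagine, had 142, 142 and 206 FPKM at 48 h and 101, 98.7 and 98.5 FPKM at 24 h in its most abundant transcript (f2p60_2377_3136; change 0.69, adjusted p = 0.0072). The member that fell was a transcript of amino acid permease 2 (f2p60_2046_21834), an importer of amino acids, with 3.84, 3.19 and 2.70 FPKM at 48 h and 7.47, 9.88 and 7.69 FPKM at 24 h (-1.14 ± 0.27, adjusted p = 0.0075). The NRT2.1 and AMT1;2 transcripts described here were thus higher in every library of 48 h than in any of 24 h, and the permease was lower in every one.

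Several enzymes of primary metabolism and their regulators rose, chosen by the size of their change and not as a list. Chloroplastic fructose-bisphosphate aldolase 2 (f4p60_1583_24681), an enzyme of the Calvin cycle and of plastid glycolysis, had 404, 394 and 334 FPKM at 48 h and 155, 162 and 155 FPKM at 24 h, a change of 1.25 ± 0.14 (adjusted p = 3.3e-05). Cytosolic aldolase 5 (f4p60_1282_8662), of glycolysis, had 90.7, 90.9 and 119 FPKM at 48 h and 49.4, 41.9 and 49.1 FPKM at 24 h (1.07 ± 0.22, adjusted p = 0.0028; 0.95 without 48 h replicate 3). The groups did not overlap for either aldolase, as the rule that named them required. Phosphoenolpyruvate carboxylase kinase 2 (f2p60_1346_26477), which phosphorylates and so activates the enzyme that fixes bicarbonate into oxaloacetate, had 9.37, 7.66 and 11.4 FPKM at 48 h and 3.20, 3.86 and 4.04 FPKM at 24 h (1.15 ± 0.15, adjusted p = 8.2e-05). This kinase was the only one of 14 listed calcium sensors and binding proteins to be called, and it is not itself known as a calcium sensor. Probable acyl-activating enzyme 6 (f2p52_2116_21547) had 15.1, 15.2 and 15.7 FPKM at 48 h and 6.08, 6.18 and 6.64 FPKM at 24 h, a change of 1.16 ± 0.12 (adjusted p = 1.7e-05) with little spread in either group.

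Rises also included a pair of transcripts with low or uneven values. Metalloendoproteinase 5-MMP (f2p60_1171_28150), a secreted protease, had 0.69, 1.03 and 2.61 FPKM at 48 h and 0.12, 0.24 and 0 FPKM at 24 h; it was called at 1.05 (adjusted p = 0.016), but not without 48 h replicate 3 (0.73, adjusted p = 0.058) nor without 24 h replicate 3 (0.97, adjusted p = 0.058). Apyrase 2 (f4p60_1598_24509), which hydrolyses nucleoside triphosphates and diphosphates, had 7.46 and 8.13 FPKM in 48 h replicates 1 and 2 and was listed at 0 in 48 h replicate 3 and in all 3 libraries of 24 h. No fold is given for it, its groups overlap, and its call was lost without 24 h replicate 3 (adjusted p = 0.053), 48 h replicate 1 (adjusted p = 0.093) or 48 h replicate 2 (adjusted p = 0.097). In a fit of the 6 libraries alone the adjusted p was 0.15 for the metalloendoproteinase and 0.2 for Apyrase 2. Apyrase 2 was named after its values were seen, outside the rule for named transcripts.

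Plants short of oxygen turn to fermentation, and 4 of the 8 tested transcripts of this low-oxygen response fell over the second day. None rose and 5 were lower at any fold, with a median log2 fold change of -1.23. Alcohol dehydrogenase 1 (ADH1) makes ethanol and regenerates NAD+ in fermentation. Its shorter transcript (f2p60_869_31612) had 18.9, 20.7 and 40.8 FPKM at 48 h and 79.5, 79.3 and 83.2 FPKM at 24 h (-1.64 ± 0.21, adjusted p = 1.0e-04). The longer copy (f2p60_1559_24796) had 9.10, 7.37 and 21.7 FPKM at 48 h and 34.5, 37 and 36.9 FPKM at 24 h (-1.58 ± 0.26, adjusted p = 7.6e-04), although in a fit of the 6 libraries alone its adjusted p was 0.056. LOB domain-containing protein 41 (LBD41, f5p60_1318_8262), a transcriptional regulator whose Arabidopsis gene is a core gene of the low-oxygen response, had 18.5, 18.0 and 42.8 FPKM at 48 h and 63.6, 79.9 and 71.7 FPKM at 24 h (-1.52 ± 0.27, adjusted p = 0.0012). In all 3 transcripts every library of 48 h was below every library of 24 h, and replicate 3 was the highest of 48 h. The estimates for the ADH1 copies may share reads.

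RAP2-3 is an ethylene-responsive factor of the group that in Arabidopsis switches on ADH1 and other low-oxygen genes, and its transcripts did not all move one way. The transcript f3p60_1327_26651, named after its values were seen, had 37.4, 38.6 and 67.4 FPKM at 48 h and 113, 144 and 134 FPKM at 24 h (-1.47 ± 0.17, adjusted p = 3.2e-05). A second (f2p60_1381_26225) had 51.1, 48.8 and 78.3 FPKM at 48 h and 112, 119 and 118 FPKM at 24 h and missed the fold minimum at -0.99 (adjusted p = 0.0024); without 48 h replicate 3 it was called at -1.20. The third (f3p60_1128_28605) had 123, 116 and 113 FPKM at 48 h and 71.4, 79.6 and 80.2 FPKM at 24 h, a change of 0.60 (adjusted p = 1.1e-05), so it lay above its 24 h level in every library. Ubiquinol oxidase 1a, the alternative oxidase of mitochondria, was called in neither of its transcripts (-0.55 and -0.09).

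Ethylene synthesis was represented by 1 large fall. The transcript of 1-aminocyclopropane-1-carboxylate (ACC) oxidase 1 (f2p53_1118_9998), the enzyme of the last step of ethylene synthesis, had 1.78, 2.28 and 9.51 FPKM at 48 h and 45.0, 42.5 and 43.2 FPKM at 24 h, a change of -3.28 ± 0.33 (adjusted p = 1.4e-05). The lowest library of 24 h was well above the highest of 48 h. Other ACC oxidase transcripts had -0.87 (f2p51_1479_7181, adjusted p = 1.5e-05) and -0.57 (f5p60_1401_7689, adjusted p = 2.2e-04), while the receptors, CTR1 and EIN2 lay between -0.42 and 0.29. Of the 10 transcripts of ethylene synthesis and signaling, ACC oxidase 1 alone was called, and the median change was -0.06.

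Among 18 tested AP2/ERF transcription factors 5 fell, none rose, and the median change was -0.78; without 48 h replicate 3 the number that fell was 3 and the median -0.38. Ethylene-responsive transcription factor ERF017 had 3 transcripts called. Another of the same name (f2p12_1146_9968) missed the fold minimum at -0.97 (adjusted p = 0.017). The estimates for the ERF017 transcripts may share reads. Of those called, the one with the largest change (f8p60_1108_28852) had 7.27, 6.38 and 0.22 FPKM at 48 h and 25.8, 28.5 and 25.6 FPKM at 24 h (-2.71 ± 0.49, adjusted p = 0.0014). In ERF017 the library apart was the lowest one, and without it the change was -1.82; in a fit of the 6 libraries alone its adjusted p was 0.081. A second ERF017 transcript (f5p60_1049_10884) was called at -1.59 (adjusted p = 0.0086) and was at -0.99 without 48 h replicate 3. The third (f13p60_1056_30338) was called at -1.55 (adjusted p = 0.044), but had -0.68 without 48 h replicate 3 and an adjusted p of 0.082, 0.089 and 0.11 without 24 h replicates 1, 2 and 3. In the fit of the 6 libraries alone the adjusted p was 0.11 for the second ERF017 transcript and 0.25 for the third. It was 0.07 there for ERF109, described next. ERF109 (f2p49_1082_29161), a factor that in Arabidopsis responds to reactive oxygen and jasmonate and named here after its values were seen, had 0.31, 0.49 and 0 FPKM at 48 h and 1.28, 2.33 and 1.77 FPKM at 24 h (-1.14 ± 0.25, adjusted p = 0.0045; -0.98 without 48 h replicate 3).

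**Figure D2:**
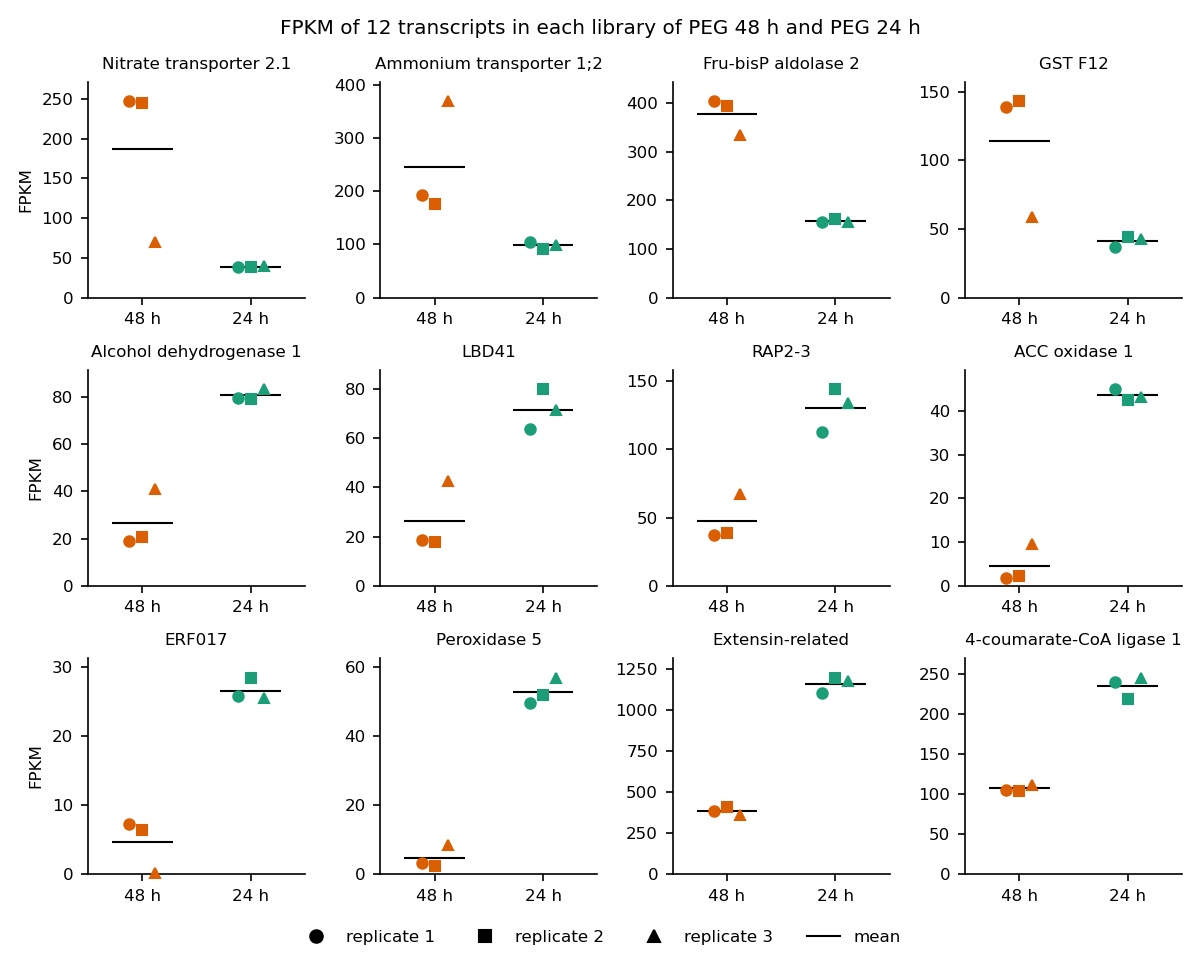
FPKM of 12 transcripts in each library, with PEG 48 h left of PEG 24 h in every panel and a bar at the mean of 3 replicates; each y axis starts at 0 and has its own scale. Replicate 3 of 48 h (triangle) lies toward the 24 h level for nitrate transporter 2.1, alcohol dehydrogenase 1, LBD41 and RAP2-3 and away from it for ammonium transporter 1;2 and ERF017.

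Cell wall proteins made up a further block of falls. Of 12 tested extensins, proline-rich proteins and arabinogalactan proteins, 5 fell, none rose and 8 were lower at any fold, with a median change of -0.64. The proline-rich 33 kDa extensin-related protein (f9p60_914_11928) had 383, 407 and 363 FPKM at 48 h and 1107, 1199 and 1175 FPKM at 24 h (-1.59 ± 0.09, adjusted p = 6.9e-08). Extensin-3 (f6p60_1064_29342), a hydroxyproline-rich glycoprotein cross-linked into the wall, had 28.8, 33.5 and 70.4 FPKM at 48 h and 184, 166 and 149 FPKM at 24 h (-1.99 ± 0.23, adjusted p = 4.0e-05). The most abundant Extensin-3 transcript (f2p60_1680_23978) had 2361, 2401 and 1934 FPKM at 48 h and 3220, 2806 and 2338 FPKM at 24 h, and was not called (-0.32, adjusted p = 0.092). Its groups overlap, unlike those of the shorter transcript.

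Repetitive proline-rich cell wall protein 2, a structural protein, was called in both of its transcripts. The slightly shorter one (f2p60_1006_30003) had 373, 270 and 579 FPKM at 48 h and 929, 1141 and 1022 FPKM at 24 h (-1.40 ± 0.21, adjusted p = 3.9e-04). The slightly longer one (f3p60_1008_29997) had 189, 309 and 329 FPKM at 48 h and 867, 687 and 740 FPKM at 24 h (-1.50 ± 0.42, adjusted p = 0.021), and its adjusted p was 0.057, 0.051 and 0.087 without 24 h replicate 1, 24 h replicate 3 and 48 h replicate 1. The near-equal lengths leave the split of reads between these transcripts uncertain. The 14 kDa proline-rich protein DC2.15 (f3p60_670_34256) had 11.8, 14.2 and 20.0 FPKM at 48 h and 30.8, 38.1 and 32 FPKM at 24 h (-1.11 ± 0.24, adjusted p = 0.0042). Without 48 h replicate 1 its change was -0.95. A second DC2.15 transcript (f2p46_752_33126) had 6.09, 5.39 and 0 FPKM at 48 h and 2.70, 3.61 and 2.91 FPKM at 24 h and was not called (-0.19, adjusted p = 0.85). Outside this list, a pair of transcripts named Mucin-1 after a Swiss-Prot match fell, and the name does not show what they encode. Transcript f2p60_2186_21304 had 43.2, 47.1 and 42.4 FPKM at 48 h and 193, 148 and 116 FPKM at 24 h (-1.73 ± 0.16, adjusted p = 3.5e-06), and f10p60_1971_22195 changed by -1.66 (adjusted p = 1.3e-06). The DC2.15 transcripts and the proline-rich transcript f2p60_1006_30003 were named after their values were seen.

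The phenylpropanoid pathway turns phenylalanine into the precursors of lignin, suberin and flavonoids. Of its 21 tested transcripts 2 fell and none rose, but 13 were lower at any fold and 1 was higher, with a median change of -0.33; without 48 h replicate 3 the number that fell was 3. Cytochrome P450 CYP73A100 (f2p60_956_11446), a cinnamate 4-hydroxylase, had 28.4, 27.7 and 58.7 FPKM at 48 h and 152, 152 and 153 FPKM at 24 h (-2.05 ± 0.20, adjusted p = 1.0e-05). 4-Coumarate-CoA ligase 1 (f2p60_2079_21713), which activates coumarate, had 105, 104 and 111 FPKM at 48 h and 240, 218 and 245 FPKM at 24 h (-1.13 ± 0.06, adjusted p = 2.3e-08). For both enzymes the groups were far apart beside their spread. Members under the fold minimum included a second 4-coumarate-CoA ligase 1 (f2p60_2057_4103, -0.84), phenylalanine ammonia-lyase G2B, the entry enzyme (f2p60_2638_2450, -0.61), and trans-cinnamate 4-monooxygenase (f2p60_1840_22893, -0.58). Another phenylalanine ammonia-lyase (f2p54_2528_20310) went the other way, with 349, 373 and 360 FPKM at 48 h and 262, 288 and 275 FPKM at 24 h (0.39, adjusted p = 0.0045).

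Upstream of that pathway, the shikimate route to aromatic amino acids had no DEG among 9 transcripts, yet all 9 had a negative change (-0.82 to -0.29, median -0.44) and 7 had an adjusted p under 0.05, 8 an unadjusted one. MYB58 (f3p60_1224_9210), in Arabidopsis an activator of lignin genes, had 7.96, 7.86 and 12.2 FPKM at 48 h and 25.4, 24.5 and 26.4 FPKM at 24 h (-1.38 ± 0.12, adjusted p = 3.0e-06). It was the only one of 10 MYB factors besides LHY to be called. Isoflavone reductase-like protein (f2p60_1283_8588), of a family of reductases that act on phenylpropanoids, had 19.7, 18.4 and 16.9 FPKM at 48 h and 63.1, 65.4 and 61.8 FPKM at 24 h (-1.74 ± 0.08), with the smallest adjusted p of the named transcripts (5.4e-09).

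Class III peroxidases, secreted enzymes that couple lignin precursors and cross-link wall proteins, went in both directions. Of 28 tested 3 fell and 1 rose, and without 48 h replicate 3 the counts were 7 and 1. Peroxidase 5 (f4p60_1269_8729) had 3.30, 2.25 and 8.35 FPKM at 48 h and 49.4, 51.8 and 56.9 FPKM at 24 h, at -3.40 ± 0.26 (adjusted p = 1.0e-06) the largest fall of any named DEG. Peroxidase 4 (f2p59_1311_26810) had 38.2, 39.8 and 69.3 FPKM at 48 h and 136, 150 and 142 FPKM at 24 h (-1.57 ± 0.17, adjusted p = 2.7e-05). In Peroxidase 9 (f2p60_1251_9156), with 38.1, 39.1 and 152 FPKM at 48 h and 134, 165 and 144 FPKM at 24 h, replicate 3 lay within the range of 24 h.

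The Peroxidase 9 call (-1.25 ± 0.36, adjusted p = 0.025) depended on single libraries: the change was -1.90 without 48 h replicate 3, -0.92 without 48 h replicate 1 and -0.94 without 48 h replicate 2, and the adjusted p was 0.072 and 0.061 without 24 h replicates 2 and 3. In a fit of the 6 libraries alone the adjusted p of Peroxidase 9 was 0.22, and it was named after its values were seen. Cationic peroxidase 1 (f2p41_1289_8520) rose, with 4.69, 5.52 and 6.06 FPKM at 48 h and 2.01, 1.48 and 1.29 FPKM at 24 h (1.31 ± 0.19, adjusted p = 2.6e-04). The 8 other transcripts of reactive oxygen removal, such as catalase, superoxide dismutase and ascorbate peroxidase, held no DEG by limma, while 5 of them were higher at any fold (median 0.20) and 6 had an unadjusted p under 0.05.

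Glutathione S-transferases (GSTs), which join glutathione to toxic or oxidised molecules, also divided. Of 20 tested 2 fell and 1 rose, with a median change of -0.23; without 48 h replicate 3 the counts were 4 and 1 and the median -0.48. The transcripts that fell both carried the name parC, after an auxin-regulated tobacco gene. The parC transcript f9p60_892_31310 had 27.9, 28.8 and 76.0 FPKM at 48 h and 86.5, 102 and 95.9 FPKM at 24 h (-1.24 ± 0.28, adjusted p = 0.0058), and f2p60_894_312621 had 7.62, 7.55 and 23.7 FPKM at 48 h and 28, 33.6 and 31.2 FPKM at 24 h (-1.38 ± 0.29, adjusted p = 0.0036). Replicate 3 was the library of 48 h closest to 24 h in both, and reads may be divided between them. GST F12 (f4p60_1052_29481), whose Arabidopsis counterpart carries flavonoids to the vacuole, had 139, 143 and 58.8 FPKM at 48 h and 37, 43.8 and 42.5 FPKM at 24 h (1.34 ± 0.23, adjusted p = 9.2e-04). In a fit of the 6 libraries alone the adjusted p of GST F12 was 0.073 and of both parC transcripts 0.11.

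Sulfate assimilation makes the cysteine that glutathione needs. Its 5 transcripts all had a negative change, 4 with an adjusted p under 0.05, and 1 was called: adenylylsulfate reductase 3 (f2p60_1697_23846), which reduces activated sulfate to sulfite, had 2.12, 2.27 and 3.04 FPKM at 48 h and 5.81, 5.04 and 7.20 FPKM at 24 h (-1.01 ± 0.13, adjusted p = 9.9e-05). Being at the fold minimum, it was under it without 24 h replicate 3 (-0.89), 48 h replicate 1 (-0.94) or 48 h replicate 2 (-0.97). A far more abundant transcript of the same enzyme (f2p35_1882_4853) had 133, 135 and 185 FPKM at 48 h and 229, 227 and 222 FPKM at 24 h, a change of -0.60 (adjusted p = 2.7e-04).

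**Figure D3:**
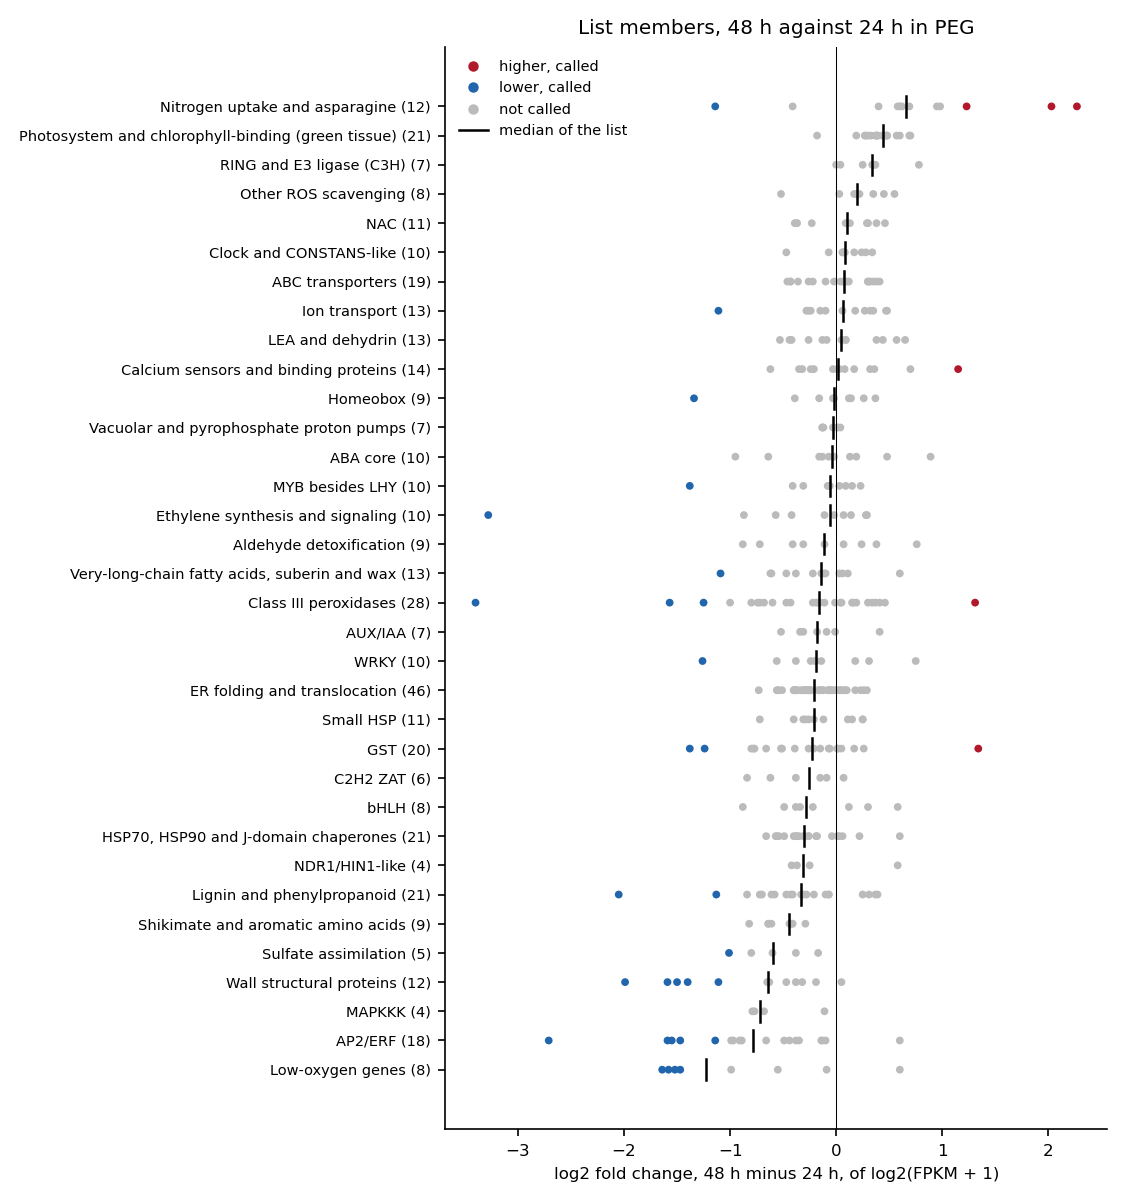
Log2 fold change (48 h minus 24 h) of each tested list member, 1 row per list with the number tested in parentheses, sorted by the list median (black bar); red and blue points are DEGs and gray points are not called. The medians run from 0.66 for nitrogen uptake to -1.23 for the low-oxygen genes.

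Single DEGs stood in several other groups. WRKY40 (f3p60_1311_8503), in Arabidopsis a repressor in ABA and defence signaling, had 31.9, 31.9 and 36.3 FPKM at 48 h and 78.9, 82.3 and 83.0 FPKM at 24 h (-1.26 ± 0.08, adjusted p = 1.3e-07), and was the 1 called of 10 WRKY factors; without 48 h replicate 3 another was called higher. A transcript in the homeobox family with no protein name (f9p60_560_36082) had 1383, 1548 and 1265 FPKM at 48 h and 3162, 3932 and 3516 FPKM at 24 h (-1.34 ± 0.20, adjusted p = 3.4e-04). Both were lower at 48 h in every library. 3-Ketoacyl-CoA synthase 10 (f5p60_1989_22046), which elongates fatty acids for waxes and suberin, had 3.88, 3.55 and 4.05 FPKM at 48 h and 10.3, 8.25 and 9.41 FPKM at 24 h (-1.09 ± 0.15, adjusted p = 1.1e-04), the 1 called of 13 transcripts of very-long-chain fatty acids, suberin and wax, against 3 without 48 h replicate 3. Plasma membrane ATPase 4 (f3p60_597_35488), a proton pump, was called at -1.11 (adjusted p = 0.014) but was at -0.89 (adjusted p = 0.061) without 24 h replicate 2 and -0.91 (adjusted p = 0.054) without 48 h replicate 3. Its adjusted p was 0.065 in a fit of the 6 libraries alone. Other transcripts of ion transport were not called.

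A few more falls were named after their values were seen. GDSL esterase/lipase APG (f2p55_1390_7772) had 5.79, 7.47 and 3.62 FPKM at 48 h and 13.5, 17.2 and 14.6 FPKM at 24 h (-1.32 ± 0.24, adjusted p = 0.0012). L-ascorbate oxidase homolog (f4p60_2033_21893) had 3.99, 3.53 and 3.59 FPKM at 48 h and 9.74, 9.07 and 9.90 FPKM at 24 h (-1.17 ± 0.13, adjusted p = 2.2e-05). Auxin-binding protein ABP19a (f2p60_910_11933) was called at -1.04 (adjusted p = 0.0025) and was at -0.83 without 48 h replicate 3 and -0.92 without 24 h replicate 2. In the lipase and the oxidase the groups did not overlap.

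A protein name was at hand for 44 of the 219 DEGs and for 676 of the 12080 transcripts tested, so most of both had none. The names came from the study's annotation tables, most of which hold transcripts it called against 0 h on these same libraries. The named DEGs are therefore not a random sample of the 219. The larger of the unnamed falls, and the largest of all DEGs, was the unnamed transcript f2p60_618_14804, with 0.40, 0.62 and 8.68 FPKM at 48 h and 34.7, 43.7 and 42.4 FPKM at 24 h (-3.87 ± 0.52, adjusted p = 1.4e-04). The other unnamed fall picked by rule was f2p60_678_341514, with 3.47, 3.13 and 9.62 FPKM at 48 h and 51.3, 52.5 and 49.7 FPKM at 24 h (-3.17 ± 0.27, adjusted p = 2.3e-06). Replicate 3 was the highest library of 48 h in both. The unnamed rises picked by the same rule were f2p60_990_11260, with 18.2, 15.3 and 27.3 FPKM at 48 h and 5.43, 4.70 and 5.68 FPKM at 24 h (1.73 ± 0.23, adjusted p = 1.1e-04), and f2p60_1899_4699, with 15.6, 16.1 and 19.4 FPKM at 48 h and 4.53, 4.10 and 4.99 FPKM at 24 h (1.70 ± 0.11, adjusted p = 1.2e-07).

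Many groups known from water deficit held no DEG over this step by the limma test; counts at an unadjusted p are to be read beside the 33% of all transcripts tested. In ABA synthesis and perception none of 10 transcripts was called (1 higher and 2 lower at any fold, 4 at an unadjusted p under 0.05), although the ABA receptor transcript PYL4 f2p60_1246_27481 had 18.2, 19.4 and 45.3 FPKM at 48 h and 47.5, 51.6 and 50.1 FPKM at 24 h (-0.95, adjusted p = 0.0082). Late embryogenesis abundant proteins and dehydrins, which protect proteins and membranes in dry cells, gave 0 of 13 (2 higher and 3 lower at any fold, 7 at an unadjusted p under 0.05, changes of -0.53 to 0.65). Small heat shock proteins gave 0 of 11, none at any fold and 3 at an unadjusted p under 0.05. Chaperones of the HSP70, HSP90 and J-domain families gave 0 of 21 (1 higher, 7 lower at any fold, 12 at an unadjusted p under 0.05) and folding in the endoplasmic reticulum 0 of 46 (2 higher, 19 lower at any fold, 27 at an unadjusted p under 0.05), with medians of -0.30 and -0.21. Without 48 h replicate 3, this PYL4 transcript (-1.36) and 1 small heat shock protein were called lower.

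The other lists without a DEG were smaller. All 4 MAPKKK kinases, the upper tier of a phosphorylation cascade, had a negative change (-0.79 to -0.11, median -0.72, or -0.32 without 48 h replicate 3), 2 of them at any fold and 3 at an unadjusted p under 0.05. Proton pumps of the vacuole stayed between -0.13 and 0.04, none of 7 at an unadjusted p under 0.05, and 19 ABC transporters between -0.46 and 0.41 (4 higher and 3 lower at any fold, 8 at an unadjusted p under 0.05). Enzymes that detoxify aldehydes had 2 of 9 higher and 3 lower at any fold (1 was called lower without 48 h replicate 3), and NDR1/HIN1-like proteins 1 of 4 lower, with 7 and 1 at an unadjusted p under 0.05. Among the transcription factors and signaling proteins, the RING and E3 ligase group had 4 of 7 higher at any fold (median 0.34), NAC factors 2 of 11 higher and 2 lower, bHLH factors 1 of 8 higher and 2 lower, AUX/IAA repressors of auxin signaling 1 of 7 higher and 1 lower, and ZAT zinc fingers 1 of 6 lower. At an unadjusted p under 0.05 these groups held 5, 5, 5, 3 and 2 transcripts, beside 33% of all transcripts tested. The 11 listed NAC factors include a transcript named Basic transcription factor 3 (f2p13_719_13897, -0.37, limma adjusted p = 0.0016). It is 1 of the 2 lower, and its name is not that of a NAC domain protein.

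Among the transcripts chosen for qRT-PCR, Peroxidase 4 and the parC transcript f2p60_894_312621 were called and the other 10 were not. The ABA synthesis enzyme NCED1 (f2p21_2499_2742) had 1.08, 0.90 and 0.50 FPKM at 48 h and 0.69, 1.00 and 1.03 FPKM at 24 h (-0.07, adjusted p = 0.81), whereas its mean was 23.4 FPKM at 12 h. The calcium-binding protein CML38 (f2p30_1011_11035) changed by 0.08, the protein kinase MAPKKK18 (f5p60_1300_26955) by -0.11, potassium transporter 2 (f7p60_2856_19557) by -0.28 and cation/calcium exchanger 1 (f3p60_1980_22126) by 0.06. Sodium/calcium exchanger NCL (f2p60_2293_3245) had a small difference with little spread, 99.7, 99.6 and 98.5 FPKM at 48 h and 123, 118 and 117 FPKM at 24 h (-0.26 ± 0.04, adjusted p = 3.5e-04). Dehydrin-type protein SRC1 (f2p60_1369_7946) changed by 0.44, late embryogenesis abundant protein D-29 (f2p37_1282_27056) by -0.53, chaperone dnaJ 11 (f2p60_820_32228) by -0.26 and Cu-Zn superoxide dismutase (f2p28_837_12827) by -0.52, none past the fold minimum.

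Both times are whole days after 0 h, the same time of day if a shared start was followed by harvests at these hours. The study describes a simultaneous harvest without clock hours, so clock genes bear on whether the step compares like times of day. None of 10 clock and CONSTANS-like transcripts was called by limma; 1 was higher at any fold and 4 had an unadjusted p under 0.05. The LHY transcript f2p60_925_30878, of a core oscillator gene with a morning peak, had 89.2, 83.8 and 79.1 FPKM at 48 h and 81.0, 61.2 and 71.2 FPKM at 24 h (0.24 ± 0.14, adjusted p = 0.23). A second LHY transcript (f4p60_3026_19232) changed by 0.34 (adjusted p = 0.12), and CONSTANS-LIKE 5 (f4p60_1731_23714), the one past the adjusted p, by 0.28 (adjusted p = 0.0036). B-box domain protein 30 (f3p60_1089_29115) changed by 0.06, CONSTANS-LIKE 6 (f3p60_1878_4842) by 0.08, CONSTANS-LIKE 4 (f8p60_1473_7558) by 0.08, CONSTANS-LIKE 3 (f2p60_1604_24470) by -0.47, and 3 transcripts of CONSTANS-LIKE 2 (f2p60_1469_7402, f2p60_1586_24574 and f3p60_1428_7616) by 0.17, 0.06 and -0.07.

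The levels at 12 h and 120 h do not enter the difference of 48 h minus 24 h, and the same transcripts were read there, 120 h minus 12 h; these libraries did share in the filter and in the estimate of the spread that made the calls. Over all transcripts tested 390 were higher (3.23%) and 664 lower (5.5%) at 120 h. Of the 51 DEGs that rose at 48 h, 22 (43.1%) were also higher at 120 h than at 12 h, 6 were lower and 23 were not called, with a median of 0.67. Of the 168 that fell, 93 (55.4%) were also lower, 3 were higher and 72 were not called, with a median of -1.21. NRT2.1 had 3.80 and 4.10 in this contrast, aldolase 2 3.28, Peroxidase 5 -3.53, Peroxidase 4 -3.63, CYP73A100 -3.34 and the extensin-related protein -3.30. DC2.15 f3p60_670_34256 turned round, at -1.11 over the second day and 1.86 at 120 h against 12 h, as did amino acid permease 2 (f2p60_2046_21834, -1.14 and 1.12). The hours 12 and 120 do not lie a whole number of days apart. They fell at different times of day if a shared start was followed by harvests at these hours. LHY differed by 3.24 and 2.82 between them. The study describes a simultaneous harvest without clock hours, so time of day and days in PEG cannot be told apart in this contrast.

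**Figure D4:**
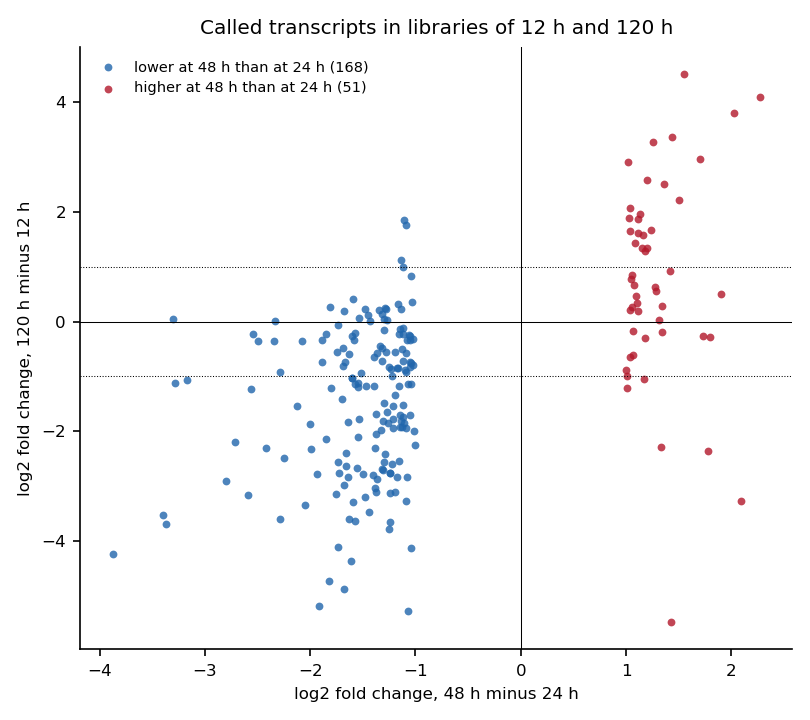
Each DEG of the step (168 that fell in blue, 51 that rose in red) by its log2 fold change of 48 h minus 24 h on the x axis and of 120 h minus 12 h on the y axis, from separate libraries; dotted lines mark the fold minimum of 1. The falls lie mostly below 0 on the y axis (median -1.21), and the rises are spread more widely (median 0.67).

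The full time course places the step among the other hours; the 24 h and 48 h libraries chose the DEGs, so the levels there are a description. For the DEGs that rose, the median of the mean log2(FPKM + 1) was, in order of time, 4.65 at 0 h, 3.90 at 6 h, 4.04 at 12 h, 3.57 at 24 h, 4.77 at 48 h and 4.78 at 120 h. For those that fell the same medians were 3.70, 4.89, 4.73, 5.32, 3.66 and 3.39. At 48 h the level was nearer that of 0 h than at 24 h in 31 of the 51 (60.8%) and in 116 of the 168 (69.0%), beside 60.1% of all transcripts tested. NRT2.1 f2p60_1894_22575 had means of 459, 98.4, 25.4, 39.1, 187 and 378 FPKM over the 6 times. The extensin-related protein averaged 47.2 FPKM at 0 h, 1806 FPKM at 6 h, 1312 FPKM at 12 h and 134 FPKM at 120 h, so both of its levels in this step lie on its way down after 6 h. LBD41 followed another course: it was highest at 0 h, with 193 FPKM, and averaged 99.1, 52.4 and 28 FPKM at 6, 12 and 120 h, so its 48 h level lies farther below 0 h than its 24 h level. Peroxidase 5 likewise averaged 70.4 FPKM at 0 h and 1.32 FPKM at 120 h.

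**Figure D5:**
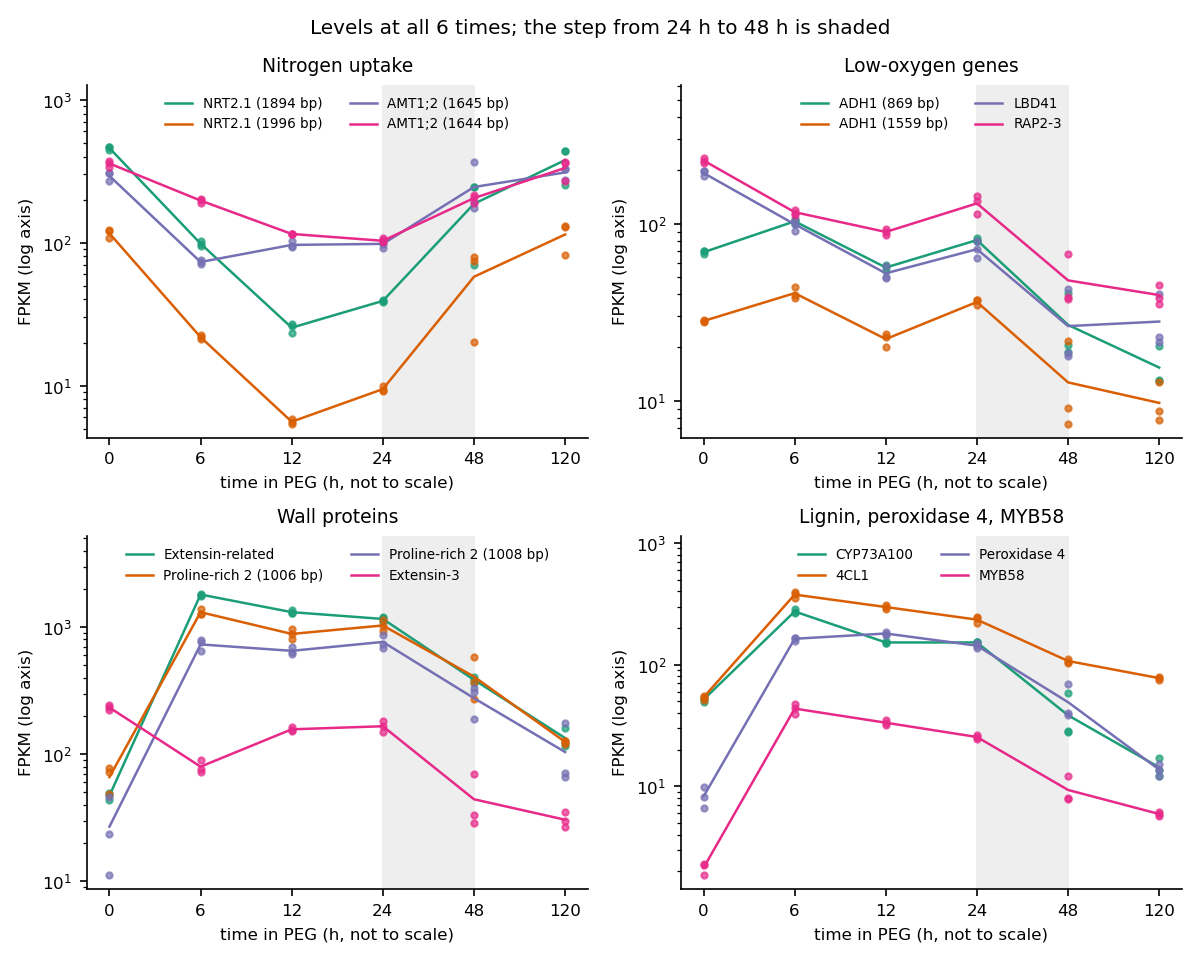
FPKM (log axis) of 16 transcripts over the 6 times in PEG, points for the 3 libraries of a time and lines through the means; the hours are evenly spaced and not to scale, and the shaded band is the step from 24 h to 48 h. Nitrogen transporters are high at 0 h, lowest at 6, 12 or 24 h and higher again at 48 h, the wall proteins other than Extensin-3 and the lignin group are highest at 6, 12 or 24 h, and the low-oxygen genes end below their 0 h level.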

How the data were processed

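Per the labels and the study's methods, RNA of poplar roots from 6 times in PEG (3 libraries each) was sequenced as paired reads of 150 bp, mapped by the authors to PacBio consensus transcripts, and quantified with RSEM 1.2.31; HTSeq 0.6.0 is also named in the submitters' processing notes. The deposited values are FPKM, with no read counts used here. No genome build is given in the sources used here, so transcripts are named by their IDs, with protein names from the study's annotation tables, which were held only in part.

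The FPKM were used as deposited. The table's columns carry codes without hours, which were read as the 0 h controls and the 5 treated times in order, and whose final digit was taken as replicate number; the labels do not print these codes. The members and lists were chosen with earlier results of these data known. log2(FPKM + 1) of the 12080 transcripts with at least 1 FPKM in 3 or more of 18 libraries was fitted with limma 3.58.1 in R 4.3.3 (time as a factor, 12 residual degrees of freedom, intensity trend, robust moderation), with Benjamini-Hochberg adjustment over all transcripts tested; an adjusted p under 0.05 and a log2 fold change of at least 1 made a call. The study's own test needs counts and was not repeated. The precision of low transcripts is limited by the fragments behind them, and FPKM keep no total depth.

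Named by rule were: the 12 largest rises and the 12 largest falls with a Swiss-Prot name, at least 400 bp and no overlap between groups; up to 3 called members per list; the 12 qRT-PCR transcripts; the clock list; and 2 unnamed rises and 2 unnamed falls. Tables were made with Python 3.11.15 and pandas 2.3.3 and plots with matplotlib 3.10.9; the fit was tested on simulated data. Alternatives covered pseudocount, filter, scaling, variance model, library weights, libraries in the fit, a replicate block, length and single libraries left out.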

Additional observations from a re-analysis of the deposited data

How the results depend on the processing

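Of the 49 named transcripts that were called, 27 kept the call under all 16 alternatives. The number of rises was 111 with array quality weights and the number of falls 326, of which 142 were also lower at 120 h than at 12 h; these weights were uneven, 15.7 for PEG 24 h replicate 3 and 0.168 for PEG 48 h replicate 3. In a fit of the 6 libraries of the step alone, with fewer residual degrees of freedom, 109 transcripts fell, 21 list members were called in place of 34, and 34 of the 49 named transcripts were called. Named rises not called in that fit were both NRT2.1 transcripts, AMT1;2 (f2p31_1645_6180), GST F12, the metalloendoproteinase and Apyrase 2. With no fold minimum 1095 rose and 1353 fell. Leaving out 1 library at a time gave 39 to 80 rises (80 without PEG 48 h replicate 3) and 150 to 203 falls, 19 to 28 rises also higher at 120 h than at 12 h, 85 to 126 falls also lower, 32 to 44 list members and 41 to 47 named transcripts.

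Same-numbered libraries of 48 h and 24 h had correlations of their deviations from the time mean of 0.000, -0.055 and -0.055. Over all pairings of these libraries the values ran from -0.074 to 0.149. So few correlations cannot settle whether the replicate numbers pair the libraries, and the main fit used no pairing. With a replicate block 47 transcripts rose and 169 fell, 21 and 96 of them also at 120 h against 12 h, and all 49 named calls were kept.

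No called transcript that is named changed sign under any alternative. Signs that turned were of uncalled values near 0: NCED1 had 0.01 with quantile normalization, CONSTANS-LIKE 6 -0.13 with array quality weights, and, over the libraries left out in turn, NCED1 had -0.17 to 0.07, CML38 -0.04 to 0.29, B-box domain protein 30 -0.00 to 0.10, CONSTANS-LIKE 6 -0.03 to 0.17, cation/calcium exchanger 1 -0.10 to 0.33 and MAPKKK18 -0.29 to 0.00. The causes were not tested.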

Other observations

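Transcripts called only without PEG 48 h replicate 3 numbered 42 higher and 69 lower, and 21 of them had a Swiss-Prot name; they are given after their values were seen. Suberin is the waterproof polymer of root barriers, and both of its fatty acid hydroxylases named here were among them: cytochrome P450 86A1 (f2p43_1953_4496) had 35.5, 35.0 and 93.7 FPKM at 48 h and 77.0, 78.4 and 71.2 FPKM at 24 h (-0.62 with all libraries, -1.08 without replicate 3), and 86B1 (f2p35_2101_3840) had 9.40, 10.6 and 36.6 FPKM at 48 h and 23.4, 24.7 and 24.9 FPKM at 24 h (-0.61 and -1.20). In both, replicate 3 lay above every library of 24 h while its fellow replicates lay below them. Peroxidase 64 (f2p60_1352_8044) showed the same arrangement, with 10.5, 8.96 and 46.2 FPKM at 48 h and 31.5, 36.6 and 34.5 FPKM at 24 h.

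In the other direction, Annexin D4 (f8p60_1364_26293), a calcium-binding membrane protein, had 18.3, 17.8 and 3.93 FPKM at 48 h and 4.72, 5.30 and 5.98 FPKM at 24 h (0.94 with all libraries, 1.60 without replicate 3). WRKY75 (f2p37_1325_26690), which in Arabidopsis acts in phosphate starvation, had 10.2, 11.9 and 1.53 FPKM at 48 h and 4.45, 5.03 and 4.87 FPKM at 24 h (0.31 and 1.06). Allene oxide synthase 1 (f2p28_2029_4192), of jasmonate synthesis, had 68.9, 68.6 and 21.7 FPKM at 48 h and 32.6, 32.5 and 34.0 FPKM at 24 h (0.50 and 1.04). Replicate 3 lay below every library of 24 h in each of the 3. It was the 48 h library nearest the 24 h mean in 20 of the 51 rises and 87 of the 168 falls, 48.9% of the DEGs beside 36.4% of all transcripts tested.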
